A study of Homo sapiens with 4 samples.

Results

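Progenitor 1 was 1 of the cell classes that the authors annotated in enteric ganglioids, which are clusters of gut neurons and less mature cells that form in 3D culture from H9, a human embryonic stem cell line. Its nuclei were compared between 2 phases of the cell cycle, G2M and G1, as called in the deposited annotation. Members were nuclei with the class Progenitor 1 and the phase G2M (912 nuclei) or G1 (790 nuclei), 1702 in all of the 14812 annotated nuclei of the series. A further 1190 nuclei of the class carried the call S. Nuclei were profiled by snRNA-seq (RNA sequencing of single nuclei) in 2 untreated control samples and in 2 samples that had received PP121, a blocker of multiple receptor tyrosine kinases, at 2 µM between day 15 and day 20 of differentiation. Each sample pooled ganglioids, all from the same line, and the labels number the differentiation of a sample as replicate 1 or 2 in both groups, without saying whether a control and a PP121 sample of 1 number share one. The annotation dates replicate 1 of both groups to day 42 and replicate 2 to day 38.

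A dividing cell copies its DNA in S phase, prepares for division in G2 and divides in M phase, while G1 is the interval before the next round of copying. Genes of the spindle, the kinetochore and cytokinesis are transcribed mainly in G2 and M and are then shut down, and many carry in their promoters a cell cycle genes homology region (CHR) near CCAAT boxes, which bind NF-Y. Enteric progenitors derive from the neural crest, keep dividing during gut development and leave the cycle as they become neurons or glia.

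The phase calls rest on 2 scores per nucleus, each the mean level of a list of genes minus that of control genes of like expression. A nucleus was G2M where the G2M score was above 0 and above the S score, and G1 where neither score was above 0, which held for all 14812 nuclei. Genes of the lists therefore chose the members and are given without a test. The call G1 asks only for low scores, so it does not separate nuclei in G1 from nuclei outside the cycle. It was also carried by 3789 nuclei of enteric neurons. Of the 43 S and 54 G2M genes listed, 42 and 52 were in the matrices. The control genes also entered the scores, and members among them are likewise given without a p. When the scores were rebuilt, the deposited calls returned for 99.2% to 99.6% of annotated nuclei per sample only if the control samples were scored with each other and the PP121 samples in 1 object with all samples. With every sample in 1 object, calls matched for 89.4% and 90.0% of control nuclei.

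Control replicate 1 gave 195 G2M and 161 G1 nuclei, control replicate 2 gave 168 and 188, PP121 replicate 1 gave 353 and 296, and PP121 replicate 2 gave 196 and 145. Counts were summed per sample and phase, and the 8 sums held between 827077 and 1887154 UMIs (molecules counted once). Median UMIs per nucleus in G1 and G2M were 6088 and 5796 in control replicate 1, 5237.5 and 5759 in control replicate 2, 4896.5 and 4600 in PP121 replicate 1, and 4612 and 5023 in PP121 replicate 2. Depth was higher in G2M in 2 of the 4 samples, with a mean log2 ratio of 0.02 ± 0.12 (SD, n = 4, exact two-sided sign permutation p = 0.75, smallest possible 0.125). Among clear calls, at least 0.05 beyond the thresholds, it was higher in G2M in 4 of 4 samples, with 0.14 ± 0.05 (exact p = 0.125, n = 4). The matrices shared 20 barcodes between samples, and 3 of the 1702 nuclei carried one.

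Levels of markers describe the nuclei and do not test the label. The progenitor markers NOTCH1, SOX2, MEF2C, PAX3, PAX7 and NFIA were all present. Their summed level was 845 to 1020 CPM (UMIs scaled to a common total per sum) in the G1 sums and 658 to 886 CPM in the G2M sums. The neuron markers named by the study, a longer list, summed to more, at 1170 to 1760 CPM in G1 and 804 to 1220 CPM in G2M. The exception was G2M of control replicate 2, where the progenitor sum was higher. MEF2C was higher in Progenitor 2 than in Progenitor 1 in both phases of all 4 samples. Markers of the enteric neural crest were low: SOX10 stood at 6.05 to 11.3 CPM in G1 and 0.894 to 9.67 CPM in G2M, and EDNRB at 2.42 to 7.50 CPM in G1 and 4.24 to 9.67 CPM in G2M. RET reached at most 1.61 CPM in any of these sums, and FOXD3 had no UMI in 3 of the 4 G1 sums. MKI67, which marks cycling cells, stood at 11.7 to 44.0 CPM in G2M and at 1.06 to 3.46 CPM in G1. TOP2A, the topoisomerase that untangles replicated DNA, stood at 72.5 to 166 CPM in G2M and at 0.893 to 6.92 CPM in G1. Both genes are in the G2M list, so these levels describe the calls and do not check them.

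Most G2M calls in Progenitor 1 were weak. The lowest G2M score among G2M nuclei was 1.58e-05, and the G1 nucleus nearest to the threshold had a higher score of -3.74e-05. The median score of G2M nuclei was between 0.0485 and 0.0596 in the 4 samples. A G2M score of at least 0.2 was reached by 18 of 195 G2M nuclei in control replicate 1, 13 of 168 in control replicate 2, 28 of 353 in PP121 replicate 1 and 32 of 196 in PP121 replicate 2, which is 91 nuclei or 9.98% in all (95% Clopper-Pearson interval 8.11 to 12.1). Within 0.05 of a threshold lay 535 of the 912 G2M nuclei and 681 of the 790 G1 nuclei. Intervals of shares cover counting error only.

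**Figure D1:**
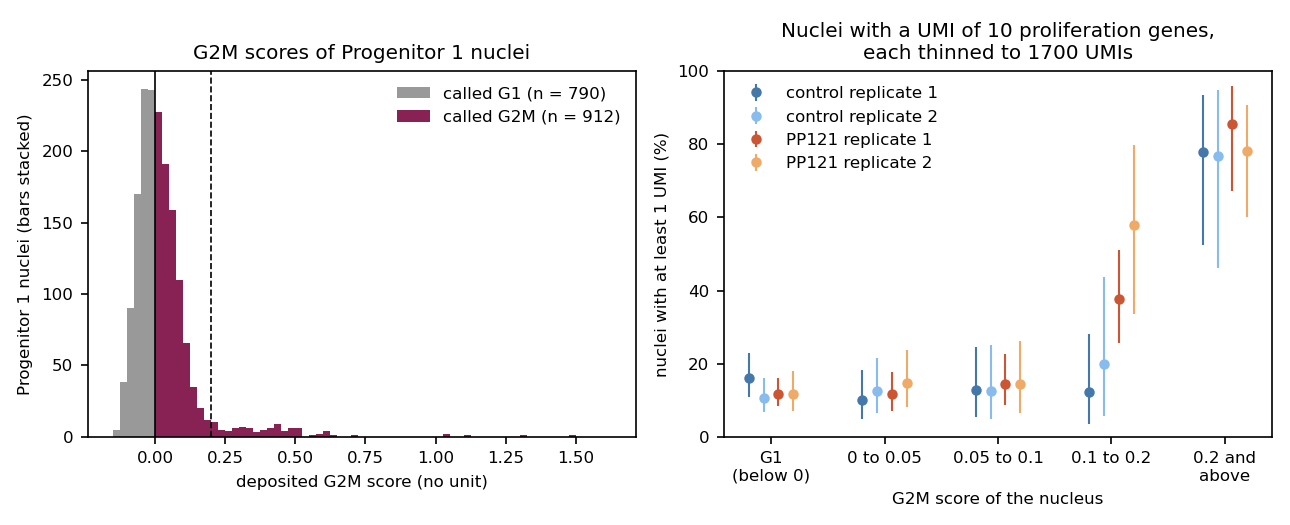
Left, number of Progenitor 1 nuclei by deposited G2M score, with G1 and G2M calls stacked, the solid line at 0 and the dashed line at 0.2. Right, percent of nuclei with at least 1 UMI of 10 proliferation genes after thinning to 1700 UMIs, by score, with 1 point per sample and 95% Clopper-Pearson intervals. Shares stay between 10.1% and 16.1% up to a score of 0.1 and reach 76.9% to 85.7% at 0.2 and above.

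Detection of proliferation genes that no list of the score holds rose with the score, but not from its start. Each nucleus was thinned to 1700 UMIs, which left out none, and nuclei with at least 1 UMI of ASPM, KNL1, CCNB1, CCNA2, PRC1, KIF4A, KIF14, KIF15, DIAPH3 or CIT were counted. Such nuclei were 12.4% of G1 (98 of 790, 10.2 to 14.9), 12.2% of nuclei with a G2M score under 0.05 (51 of 419, 9.20 to 15.7), 13.8% from 0.05 to 0.1 (37 of 269, 9.87 to 18.5), 31.6% from 0.1 to 0.2 (42 of 133, 23.8 to 40.2) and 80.2% at 0.2 and above (73 of 91, 70.6 to 87.8). The 2 lowest groups of G2M nuclei thus could not be told from G1 at this depth. ASPM, KNL1, CCNA2 and KIF4A are control genes of the scores, and with the other 6 genes alone the shares, in the same order, were 8.61%, 8.35%, 10.0%, 24.8% and 71.4%. From 0.1 to 0.2 the shares were 12.1% (4 of 33) and 20.0% (4 of 20) in the control samples, replicate 1 first. In the PP121 samples they were 37.7% (23 of 61) and 57.9% (11 of 19). Intervals overlapped except between control replicate 1 and PP121 replicate 2. With the 6 genes alone the counts, in this order, were 4, 3, 20 and 6 of the same nuclei. The deposited calls returned only with the groups scored in different objects, so this range of scores may differ between them. The difference between the groups was not tested. In enteric neurons 12.8% of G1 nuclei had a UMI of the 10 genes (485 of 3789, 11.8 to 13.9). Their median was 7811 UMIs before thinning, against 5157 in G1 of Progenitor 1. Without thinning, the shares were 30.9% in G1 and 42.4% in G2M of Progenitor 1 and 41.0% in G1 neurons.

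MKI67 was seen in few nuclei. It belongs to the G2M list, so its shares by phase or score are a description of the calls. After thinning, 29 of 912 G2M nuclei (3.18%, 2.14 to 4.53) and 2 of 790 G1 nuclei (0.253%, 0.0307 to 0.911) had a UMI, against 7 of 3789 G1 neurons (0.185%). Unthinned, the shares of Progenitor 1 were 7.35% and 1.27%. At a score of at least 0.2, 23.1% of the nuclei had one (21 of 91), and below it 0.974% (8 of 821, 0.422 to 1.91). TOP2A was seen in 9.76% of G2M nuclei and in 1.01% of G1 nuclei. In Progenitor 2, the other large class of progenitors, 18.6% of G2M nuclei had a UMI of MKI67.

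The share of Progenitor 1 in G2M was 33.3% (29.5 to 37.3) in control replicate 1, 27.6% (24.1 to 31.4) in control replicate 2, 29.5% (26.9 to 32.2) in PP121 replicate 1 and 39.1% (34.8 to 43.5) in PP121 replicate 2. The control mean was 30.5% ± 3.99 and the PP121 mean 34.3% ± 6.81 (SD, n = 2 each), and their difference of 3.85 points did not exceed the spread of the replicates (exact two-sided permutation p = 0.667, smallest possible 0.333). With all samples scored in 1 object the difference was -1.45 points. Within the dated days the PP121 sample was lower at day 42 and higher at day 38. In the same order of samples, G2M took 14.1%, 15.7%, 20.3% and 25.3% of Progenitor 2 nuclei.

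The promoters of 4 of the genes that rose most are shown because they carry motifs known from genes of G2 and M phase. They are RefSeq sequences of GRCh38.p14, 250 bases before to 50 after the start of the gene, 5′ to 3′ on the strand of the gene, and capitals mark matches on either strand. Searched were CCAAT and 2 forms of the CHR, TTTGAA and its variant TTCGAA. DIAPH3 is at chr13:60163879-60164178 (minus strand), KIF14 at chr1:200620702-200621001 (minus strand), KIF15 at chr3:44761544-44761843 (plus strand) and CCNB1 at chr5:69166900-69167199 (plus strand).
DIAPH3: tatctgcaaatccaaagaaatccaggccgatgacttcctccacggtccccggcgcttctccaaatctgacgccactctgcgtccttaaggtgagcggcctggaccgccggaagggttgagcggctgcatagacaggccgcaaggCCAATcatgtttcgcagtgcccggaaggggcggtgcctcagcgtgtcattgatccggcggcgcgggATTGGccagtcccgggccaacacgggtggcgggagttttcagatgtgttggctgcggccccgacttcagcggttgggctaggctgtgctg
KIF14: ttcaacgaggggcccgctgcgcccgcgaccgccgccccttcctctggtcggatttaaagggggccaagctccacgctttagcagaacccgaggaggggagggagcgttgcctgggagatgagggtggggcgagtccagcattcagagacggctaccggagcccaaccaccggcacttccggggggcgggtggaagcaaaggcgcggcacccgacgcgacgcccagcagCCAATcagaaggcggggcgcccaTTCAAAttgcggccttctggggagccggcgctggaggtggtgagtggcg
KIF15: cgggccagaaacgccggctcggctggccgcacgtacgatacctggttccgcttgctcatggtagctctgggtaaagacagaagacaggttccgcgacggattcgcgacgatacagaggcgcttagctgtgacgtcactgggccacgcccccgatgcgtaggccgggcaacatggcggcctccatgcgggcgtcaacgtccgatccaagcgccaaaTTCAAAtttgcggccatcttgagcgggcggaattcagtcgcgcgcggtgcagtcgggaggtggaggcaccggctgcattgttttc
CCNB1: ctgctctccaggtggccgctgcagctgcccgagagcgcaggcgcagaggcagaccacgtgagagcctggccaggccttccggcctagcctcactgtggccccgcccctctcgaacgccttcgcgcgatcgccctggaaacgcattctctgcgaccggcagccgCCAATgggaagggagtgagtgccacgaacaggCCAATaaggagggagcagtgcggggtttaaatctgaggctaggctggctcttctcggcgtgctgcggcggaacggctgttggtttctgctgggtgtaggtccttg
Of the forms searched, KIF14 held a CHR and CCAAT, KIF15 only a CHR, and DIAPH3 and CCNB1 only CCAAT. Other forms of the CHR were not searched, here or in the shares below, so absence of a CHR is not shown. Of the 332 genes outside the scoring lists that rose in G2M, 266 had a promoter in the table, and CCAAT occurred in 50.8% of them, a CHR in 16.5% and both in 9.77%. Over all tested genes outside the lists (8443 promoters) the shares were 37.5%, 11.4% and 4.8%, and among the 305 promoters of genes that fell they were 30.2%, 13.8% and 4.26%. These shares are given as a description.

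The main comparison asked which genes differed between G2M and G1 within the same samples. Of 11422 genes tested outside the scoring lists, 332 were higher in G2M (2.91%) and 468 lower (4.10%, edgeR's quasi-likelihood test with sample as block, Benjamini-Hochberg adjusted p under 0.05). Without the control genes as well, 240 of 7688 rose (3.12%) and 346 fell (4.50%). Genes of mitosis and cytokinesis made up most of the 10 largest rises, of which ASPM, KIF18A and KNL1 are control genes. The ranking asked for a mean of 10 CPM or more over both phases. Genes low in G1, such as CCNB1, reached it through their G2M level, so the ranking is a description. Several heat shock chaperones also rose. The 10 largest falls included LUZP2, FGF14, KCTD8, CLMP and ROBO3. Members of gene lists are counted here outside the control genes. Since a gene that is low in G1 could pass the filter on low counts through its G2M level, the summed level of all members outside the control genes, filtered or not, stands beside the counts, in CPM of the total of a sum, and is carried most by the members of highest expression. The counts over all genes rested on the pairing of phases within samples: without the sample block 6 rose and 1 fell. Without PP121 replicate 1, 78 rose and 140 fell, and without control replicate 1, 167 rose and 246 fell.

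DIAPH3, a formin that builds the actin filaments of the cleavage furrow, had the largest rise in this ranking. The gene is at chr13:59665583-60163987 on the minus strand in GENCODE 29 for GRCh38 and overlaps the antisense genes DIAPH3-AS1 and DIAPH3-AS2, whose reads the counting may not separate. Its level in G1 and G2M was 1.73 and 35.8 CPM in control replicate 1, 2.68 and 18.5 CPM in control replicate 2, 2.65 and 24.9 CPM in PP121 replicate 1, and 6.47 and 64.3 CPM in PP121 replicate 2. Every G2M sum was above every G1 sum, and the difference was 3.36 ± 0.33 (log2, SE, edgeR adjusted p = 2.87e-08). The S sums stood between the phases in each sample, at 3.82 to 22.6 CPM. The counts were small: 184 UMIs in 64 G2M nuclei against 15 UMIs in 12 G1 nuclei, and 72.3% of the G2M UMIs came from the 91 nuclei with a score of at least 0.2.

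Mitotic kinesins are motors that move chromosomes and spindle microtubules. Of 9 mitotic kinesins listed, 4 are control genes, 3 of the others passed the filter and 2 rose, KIF14 and KIF15. The summed level of the 5 that are not control genes was 22.0 to 40.7 CPM in G1 and 55.4 to 136 CPM in G2M. KIF14, a kinesin of cytokinesis, rose from 8.65 to 29.3 CPM in control replicate 1, from 8.93 to 34.1 CPM in control replicate 2, from 13.8 to 31.7 CPM in PP121 replicate 1 and from 9.05 to 69.6 CPM in PP121 replicate 2 (log2 difference 1.85 ± 0.26, edgeR adjusted p = 2.64e-05). All G2M sums of KIF14 lay above all G1 sums, while the S sums of 6.37 to 11.8 CPM overlapped with those of G1. KIF15, which helps to keep spindle poles apart, rose from 2.68 to 7.78 CPM in G1 to 12.2 to 33.5 CPM in G2M (1.83 ± 0.37, edgeR adjusted p = 0.002). KIF18A, which aligns chromosomes and is a control gene, stood at 3.57 to 7.76 CPM in G1 and at 9.75 to 25.5 CPM in G2M.

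**Figure D2:**
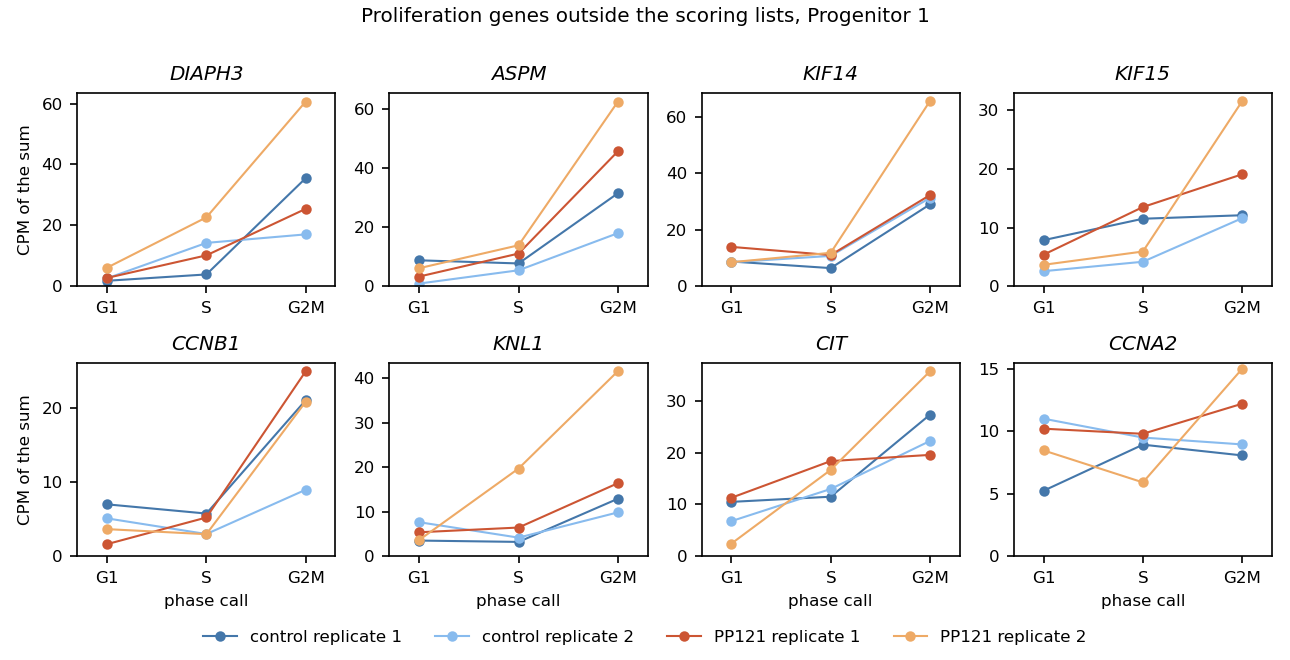
Level of 8 proliferation genes outside the scoring lists in the sums of Progenitor 1 by phase call, in CPM of the total UMIs of a sum, with 1 line per sample and axes from 0. DIAPH3, ASPM, KIF14 and CCNB1 are higher in G2M than in G1 in every sample, while CCNA2 is lower in G2M in control replicate 2.

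Of 33 genes of the spindle, the centrosome and cytokinesis, 13 are control genes, 14 of the others passed the filter, and 7 of these rose and none fell. Their summed level over 20 genes was 377 to 475 CPM in G1 and 478 to 739 CPM in G2M, higher in G2M in all 4 samples. ASPM, which holds microtubules at the spindle pole and is a control gene, stood at 8.65 CPM in G1 and 31.8 CPM in G2M in control replicate 1, at 0.893 and 19.5 CPM in control replicate 2, at 3.18 and 44.6 CPM in PP121 replicate 1 and at 6.47 and 66.1 CPM in PP121 replicate 2. PTTG1, the securin that restrains separase until anaphase, rose from 2.12 to 9.05 CPM in G1 to 9.75 to 20.3 CPM in G2M (1.90 ± 0.38, edgeR adjusted p = 0.00179). ARHGAP11B rose by 1.66 ± 0.27 (edgeR adjusted p = 0.000166). It is a partial duplicate of ARHGAP11A, and reads of the pair may be split between them.

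Of 37 genes of the kinetochore and the spindle checkpoint, 14 are control genes, 14 of the others passed the filter, and 4 of these rose and none fell. The summed level over 23 genes was 488 to 535 CPM in G1 and 589 to 749 CPM in G2M. CENPK, a subunit of the inner kinetochore, rose from 3.57 to 10.3 CPM in G1 to 12.7 to 32.6 CPM in G2M (1.49 ± 0.31, edgeR adjusted p = 0.00274). KNL1, the scaffold of the outer kinetochore and a control gene, stood at 3.46 to 8.04 CPM in G1 and 10.7 to 44.0 CPM in G2M. Among subunits and partners of condensin and cohesin, which fold chromosomes and hold sister chromatids together, 4 of 11 tested rose, and the sum of 14 genes was higher in G2M in all 4 samples (log2 ratio 0.26 ± 0.09, SD). NCAPG2 of condensin II rose by 1.15 ± 0.24 (edgeR adjusted p = 0.00262), and the cohesin subunits STAG2 and SMC3 by 0.54 ± 0.11 and 0.46 ± 0.11 (edgeR adjusted p = 0.00161 and 0.00945).

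Of 12 cyclins, kinases and transcription factors tested, 1 rose and none fell, and the sum of 19 such genes was higher in G2M in 2 of 4 samples (log2 ratio 0.02 ± 0.10, SD). The 1 that rose was CCNB1. CCNB1, the cyclin that drives entry into mitosis with CDK1, rose from 6.92 to 21.2 CPM in control replicate 1, 5.36 to 9.75 CPM in control replicate 2, 1.59 to 24.4 CPM in PP121 replicate 1 and 3.88 to 22.0 CPM in PP121 replicate 2 (2.21 ± 0.40, edgeR adjusted p = 0.000544). The smallest step was that of control replicate 2. WEE1, the kinase that holds CDK1 inactive and a control gene, stood at 14.7 to 25.0 CPM in G1 and at 28.5 to 49.3 CPM in G2M. Of 5 inhibitors of cyclin-dependent kinases and other brakes tested, none was called. CDKN1A, a control gene that encodes p21, stood at 1.29 to 42.4 CPM in G1 and 11.5 to 57.0 CPM in G2M.

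Among 15 genes of DNA replication and repair tested, 4 rose and none fell, and the sum of 22 such genes was 481 to 665 CPM in G1 and 650 to 1030 CPM in G2M. FANCI, which directs repair of crosslinked DNA, rose from 20.5 to 24.2 CPM in G1 to 39.5 to 58.1 CPM in G2M without overlap (1.13 ± 0.20, edgeR adjusted p = 0.00043), but overlaps POLG on the other strand. RFC3, a subunit of the clamp loader, rose by 0.75 ± 0.16 (edgeR adjusted p = 0.0032). Of 8 histone genes tested (16 of the 32 listed were in the matrices), 4 rose, and the sum of 13 was higher in G2M in all 4 samples (log2 ratio 0.52 ± 0.29, SD). The linker histone HIST1H1C rose by 1.17 ± 0.20 (edgeR adjusted p = 0.000335) and the replication-independent H3F3B by 0.48 ± 0.09 (edgeR adjusted p = 0.00152). Of 10 genes of chromatin and the nuclear envelope tested, 3 rose, among them HMGB1 (0.49 ± 0.12, edgeR adjusted p = 0.00827) and EZH2, the methyltransferase of Polycomb (0.39 ± 0.10, edgeR adjusted p = 0.0116).

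Heat shock chaperones also rose, at levels that varied. Over the 8 sums HSP90AA1 averaged 676 CPM, above the cohesin subunits STAG2 (228 CPM) and SMC3 (225 CPM). HSPA1A (73.5 CPM) and HSPA8 (92.1 CPM) averaged below both subunits. HSP90AA1, which encodes an inducible HSP90, rose from 590 to 1140 CPM in control replicate 1, from 656 to 1070 CPM in control replicate 2, from 372 to 598 CPM in PP121 replicate 1 and from 429 to 560 CPM in PP121 replicate 2 (log2 difference 0.69 ± 0.10, edgeR adjusted p = 1.81e-05). The rise occurred in all 4 samples, but the G2M sums of PP121 samples lay below the higher of the control G1 sums. In the list of immediate early and stress genes 3 of 8 tested rose, and all 3 encode chaperones: HSPA1A, HSPA1B and HSP90AA1. HSPA1A and HSPA1B are near-identical, so their counts are uncertain. None of the immediate early genes JUN, FOS, EGR1 or FOSB was called. Further chaperones, chosen after their values were seen, also rose: HSPH1 by 0.76 ± 0.11 (edgeR adjusted p = 3.4e-05), HSPA8 by 0.80 ± 0.14 (edgeR adjusted p = 0.000534), HSPD1 by 0.55 ± 0.10 (edgeR adjusted p = 0.000793) and HSPE1 by 0.66 ± 0.13 (edgeR adjusted p = 0.00106). HSPD1 and HSPE1 overlap on opposite strands, so their reads may not be separable. Of 3 mitochondrially encoded transcripts tested none was called.

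LUZP2, a leucine zipper protein, had the largest fall among genes that averaged 10 CPM or more, went one way in all 4 samples and did not enter the scores. It fell from 39.8 to 5.70 CPM in control replicate 1, from 19.6 to 11.7 CPM in control replicate 2, from 86.9 to 28.6 CPM in PP121 replicate 1 and from 78.9 to 28.2 CPM in PP121 replicate 2 (log2 difference -1.62 ± 0.23, edgeR adjusted p = 1.77e-05). Levels were higher in the PP121 samples, and the phases overlapped across samples but not within any. FGF14, an intracellular partner of neuronal sodium channels, fell from 59.8 to 106 CPM in G1 to 13.6 to 65.2 CPM in G2M (-1.40 ± 0.19, edgeR adjusted p = 1.77e-05). CLMP, an adhesion molecule, fell by 1.48 ± 0.27 on the log2 scale (edgeR adjusted p = 0.000694). ROBO3, a receptor of axon guidance, fell by 1.38 ± 0.37 (edgeR adjusted p = 0.0169), with no UMI in the G2M sum of control replicate 2. Of its 25 UMIs in the G1 sum of control replicate 1, 11 came from 1 nucleus. Without that nucleus the sum stood at 12.3 CPM, below the 17.9 CPM of G2M in the same sample. KCTD8, an auxiliary subunit of GABAB receptors, stood in G1 and G2M at 50.2 and 2.44 CPM in control replicate 1, 6.25 and 0 CPM in control replicate 2, 23.9 and 22.3 CPM in PP121 replicate 1 and 10.3 and 4.4 CPM in PP121 replicate 2 (-1.51 ± 0.43, edgeR adjusted p = 0.0269). Of the 58 UMIs in the G1 sum of control replicate 1, 42 came from 1 nucleus, without which that sum stood at 14.2 CPM. Without that sample the fall was 0.64 and not called (edgeR adjusted p = 0.479), and the phase difference of KCTD8 was more positive under PP121 (by 4.07 ± 0.81, edgeR adjusted p = 0.0485).

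The remaining large falls were of long non-coding RNAs and of 2 control genes. AC016642.1 overlaps RAB3C, AC011369.1 overlaps TENM2 and LINC01917 overlaps DCC, each on the other strand, so reads of these pairs may not be separable. DCC is itself a control gene of the scores, so the fall of LINC01917 is given as a description. LINC01917 fell by 1.57 ± 0.37, AC016642.1 by 1.60 ± 0.34 and AC011369.1 by 1.45 ± 0.28 on the log2 scale. The control genes ACOT12 and ZFHX2 stood at 9.82 to 35.5 and 9.82 to 18.6 CPM in G1, and at 1.76 to 9.77 and 3.90 to 7.93 CPM in G2M.

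Of 14 enteric neuron markers tested, 4 fell and none rose, and the sum of 15 was lower in G2M in all 4 samples (log2 ratio -0.415 ± 0.262, SD). NRXN3, a presynaptic adhesion protein, fell from 648 to 151 CPM in control replicate 1, 388 to 153 CPM in control replicate 2 and 522 to 282 CPM in PP121 replicate 1, and stood at 259 and 246 CPM in PP121 replicate 2 (-1.11 ± 0.16, edgeR adjusted p = 4.2e-05). PP121 replicate 2 thus had little difference. NRCAM, an adhesion molecule of axons, fell by 0.42 ± 0.12 (edgeR adjusted p = 0.0226), in 3 of 4 samples. The summed level of 11 neuron markers named by the study was 1170 to 1760 CPM in G1 and 804 to 1220 CPM in G2M, lower in G2M in all 4 samples, and whether neuronal RNA among the G1 nuclei plays a part in the falls was not tested. Of 2 proneural factors tested 1 fell: MYT1L, a repressor of non-neuronal genes, by 1.48 ± 0.32 (edgeR adjusted p = 0.00327), in 3 of 4 samples.

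Further neuronal genes, chosen after their values were seen, fell in all 4 samples. NTM, an adhesion molecule of neurites, fell from 76.8 to 254 CPM in G1 to 44.0 to 83.1 CPM in G2M (-1.18 ± 0.15, edgeR adjusted p = 5.96e-06). NAV3, a microtubule-binding guidance protein, fell from 269 to 410 CPM to 169 to 182 CPM without overlap (-0.91 ± 0.11, edgeR adjusted p = 1.8e-06). RIMS2, of the presynaptic active zone, fell by 0.89 ± 0.15 (edgeR adjusted p = 0.000256).

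**Figure D3:**
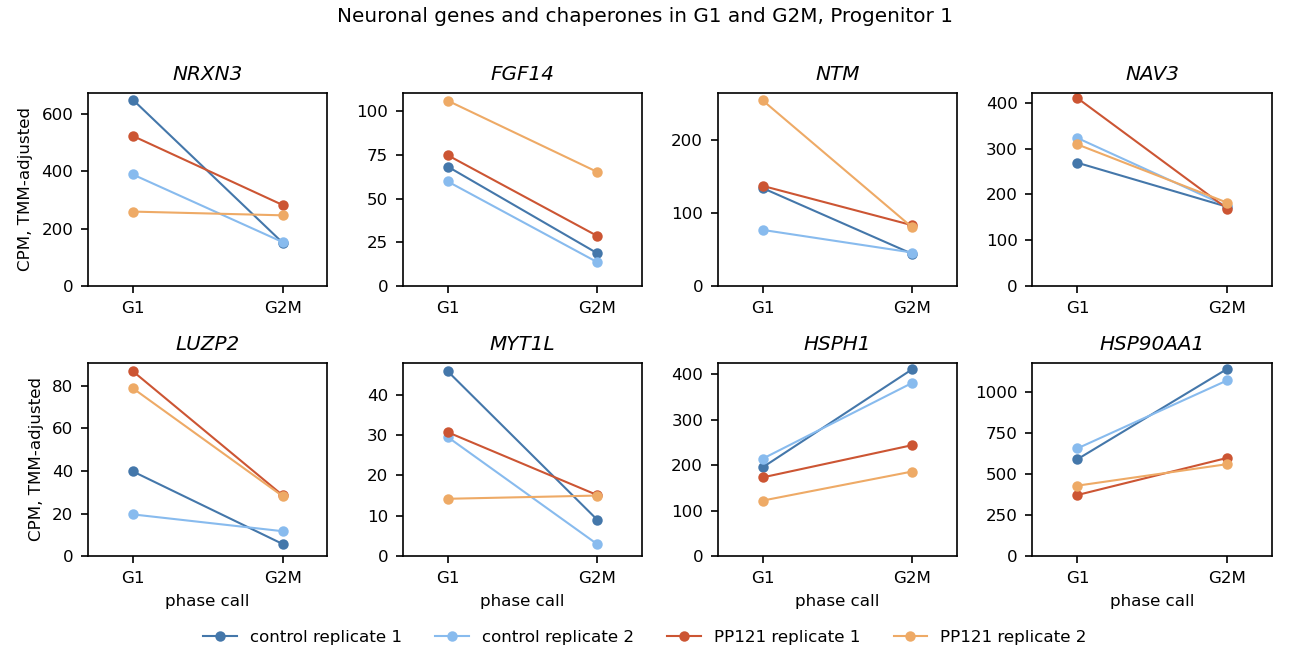
Level of 6 neuronal genes and 2 chaperones in the G1 and G2M sums of Progenitor 1, in CPM adjusted by TMM factors, with 1 line per sample and axes from 0. NRXN3 and MYT1L are nearly level in PP121 replicate 2, while HSPH1 and HSP90AA1 rise in all 4 samples from higher levels in the control samples.

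Of 9 markers of enteric progenitors and glial precursors tested, 1 was called, where 3.12% of all genes outside the scoring lists and controls were higher and 4.50% lower. It was SOX5, which fell by 0.47 ± 0.11 (edgeR adjusted p = 0.00833). Its level in G1 and G2M was 292 and 244 CPM in control replicate 1 and 330 and 326 CPM in control replicate 2. In the PP121 samples it was 384 and 218 CPM in replicate 1 and 554 and 334 CPM in replicate 2. Control replicate 2 thus had little difference. The phase difference of SOX5 between treatments was -0.64 ± 0.19 and not called (edgeR adjusted p = 0.481). The sum of 17 such markers was lower in G2M in 3 of 4 samples (log2 ratio -0.02 ± 0.10, SD). SOX2 stood at 42.3 to 62.9 CPM in G1 and 39.5 to 60.8 CPM in G2M, scaled to the total of a sum. In the Notch pathway, which holds back neuronal differentiation, 1 of 8 tested fell, the coactivator MAML2, by 0.51 ± 0.11 (edgeR adjusted p = 0.00413). HES5, a target of Notch and a control gene, stood at 31.1 to 47.2 CPM in G1 and 45.8 to 79.4 CPM in G2M. Of 4 mesenchymal markers and 5 genes of motile cilia tested none was called, and none of the epithelial markers passed the filter on low counts. The summed level of the 13 mesenchymal markers was 166 to 319 CPM in G1 and 150 to 306 CPM in G2M.

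UBTD1 was among the 10 largest rises, with 1.91 ± 0.24 (log2, edgeR adjusted p = 4.1e-06), but 148 of the 170 UMIs in the G2M sum of PP121 replicate 1 came from a single nucleus. Without that nucleus the sum stood at 11.7 CPM, below the 19.1 CPM of G1 in the same sample. In the other 3 samples UBTD1 stood at 6.47 to 13.8 CPM in G1 and 16.6 to 52.1 CPM in G2M.

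To see which differences came from the few nuclei of high score, G2M nuclei with a score of at least 0.2 (91) and under 0.2 (821) were each set against all G1 nuclei. These comparisons were added after the data were seen, and their groups are cut from the score that made the calls, so they describe a gradient and not 2 types. At 0.2 and above 336 of 8353 genes rose (4.02%) and 322 fell (3.85%). Under 0.2, 260 of 11101 rose (2.34%) and 358 fell (3.22%). The summed level of the 5 mitotic kinesins was 303 to 569 CPM at 0.2 and above and 27.5 to 52.1 CPM under 0.2, and that of the 20 spindle genes 1660 to 1990 CPM and 392 to 548 CPM, against the G1 levels given above. These values are given with no test between the groups. KIF14 differed by 4.26 ± 0.34 in the first group and by 0.70 ± 0.30 in the second, where it was not called (edgeR adjusted p = 0.175), and the difference between the groups was not tested.

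HSP90AA1, HSPH1, NRXN3 and NAV3 differed in both groups. These genes had passed the main comparison, and both groups share its G1 nuclei. The group under 0.2 holds most of its G2M nuclei, so passing there is not a second test. HSP90AA1 rose by 0.69 ± 0.20 at 0.2 and above (edgeR adjusted p = 0.0252) and by 0.67 ± 0.10 under 0.2 (edgeR adjusted p = 0.000485), and HSPH1 by 1.29 ± 0.19 and 0.67 ± 0.12. NRXN3 fell by 1.68 ± 0.28 and by 1.05 ± 0.19, and NAV3 by 1.46 ± 0.26 and by 0.84 ± 0.12. Of the enteric neuron markers, 3 of 13 tested fell and 1 rose at 0.2 and above, and 1 of 14 fell under 0.2. Of the 2 groups, HSPA1A rose in the one under 0.2, by 0.90 ± 0.18 (edgeR adjusted p = 0.00731), with -0.34 ± 0.41 at 0.2 and above (edgeR adjusted p = 0.709), and the difference between the 2 was not tested. Of 8 histone genes tested under 0.2, 4 rose, and none of the 7 tested at 0.2 and above was called. NEAT1, a nuclear long non-coding RNA that was chosen after its values were seen and did not pass the main test (0.09 ± 0.09, edgeR adjusted p = 0.602), fell by 2.21 ± 0.22 at 0.2 and above (edgeR adjusted p = 4.1e-09).

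**Figure D4:**
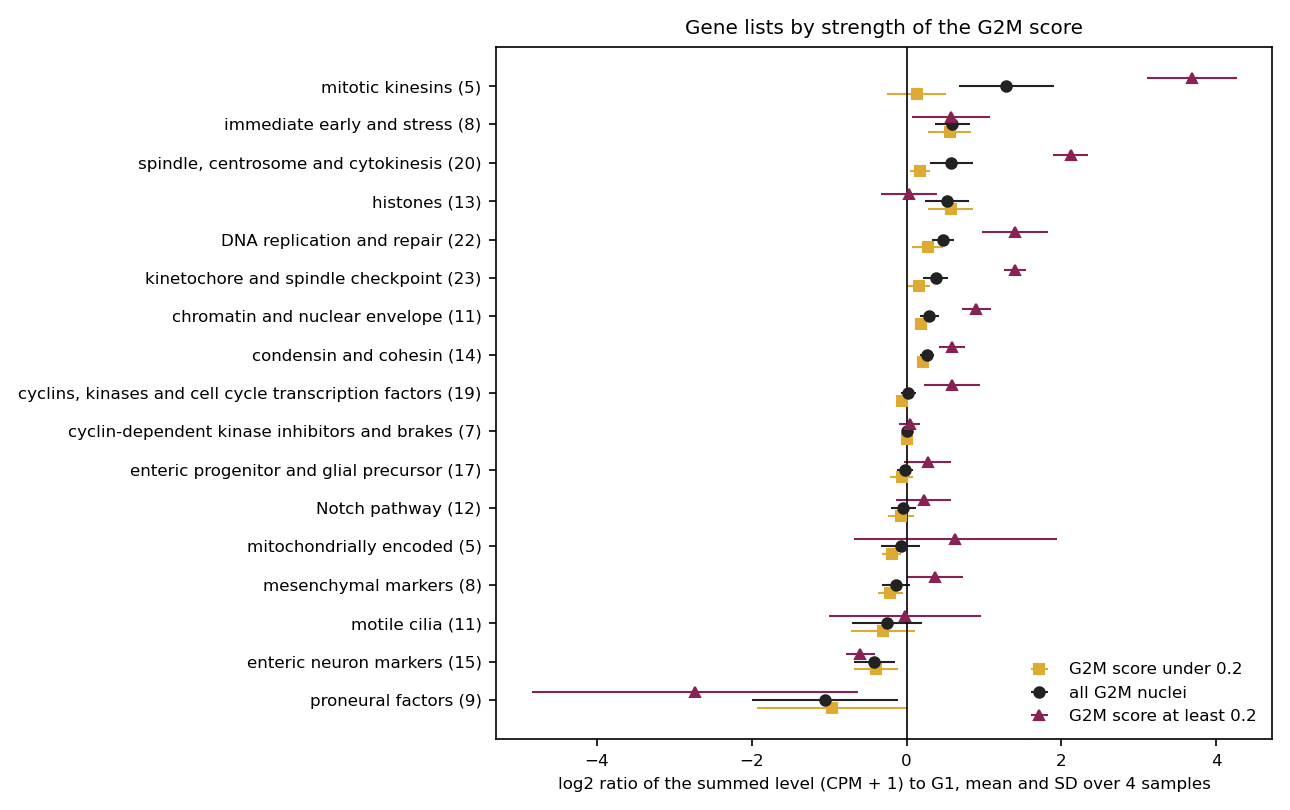
Log2 ratio to G1 of the summed level (CPM + 1) of all members of each list that are not control genes (their number in parentheses), for all G2M nuclei (circles), nuclei with a score under 0.2 (squares) and of at least 0.2 (triangles), as mean and SD over 4 samples. Mitotic kinesins stand at 3.68 for the triangles and 0.13 for the squares, and neuron markers lie left of 0 in each set, from -0.60 to -0.40.

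The PP121 samples were compared with control samples for the size of the phase difference. Of 11422 genes outside the lists, 7 differed (0.0613%), 5 with a more positive (0.0438%) and 2 with a more negative difference (0.0175%) under PP121. GRAMD4 differed by -4.30 ± 0.56 (edgeR adjusted p = 0.000219), but 578 of the 613 UMIs in the G1 sum of PP121 replicate 1 came from 1 nucleus, and without it the sum stood at 18.8 CPM in place of 325 CPM. PCDH9-AS2 stood at 62.3 and 29.5 CPM in control G1 and 4.89 and 10.7 CPM in control G2M, and at 12.2 and 14.2 CPM in PP121 G1 and 22.3 and 22.9 CPM in PP121 G2M (difference 3.34 ± 0.58, edgeR adjusted p = 0.0113). PCDH9-AS2 overlaps PCDH9 on the other strand. Of its 72 UMIs in the G1 sum of control replicate 1, 34 came from 1 nucleus, without which the sum stood at 33.5 CPM. NRXN3 was also among the 7 (1.20 ± 0.24, edgeR adjusted p = 0.0485). With DESeq2 none passed (86 at an unadjusted p under 0.05). For KIF14 the difference between treatments was 0.02 ± 0.73, for DIAPH3 -0.32 ± 0.79 and for HSP90AA1 -0.28 ± 0.18, so an effect of PP121 on the rises of the first 2 was not resolved with 2 samples a group. With the phases of all samples scored in 1 object, 10 of 11593 genes differed, 6 with a more positive and 4 with a more negative difference.

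Between the replicate numbers, which mark the dated days, 14 genes differed (0.123%), and none with DESeq2 (76 at an unadjusted p under 0.05). FGFBP3 differed by -3.33 ± 0.53 (edgeR adjusted p = 0.00088), with 289 of the 299 UMIs in the G2M sum of PP121 replicate 1 in a single nucleus and 5.31 CPM without it. AL021918.5 stood at 37.2 and 30.7 CPM in G1 and 55.4 and 45.7 CPM in G2M in replicates 1 of control and PP121, and at 50 and 63.4 CPM in G1 and 13.6 and 17.6 CPM in G2M in replicates 2 (difference -2.42 ± 0.40, edgeR adjusted p = 0.000956). Of its 88 UMIs in the G2M sum of PP121 replicate 1, 61 came from 1 nucleus, without which the sum stood at 14.3 CPM. MEF2C, a transcription factor among the progenitor markers, fell from 222 to 92.8 CPM and from 129 to 60.7 CPM in replicates 1 of control and PP121, and stood at 92.9 and 153 CPM and at 109 and 107 CPM in replicates 2 (difference 1.54 ± 0.26, edgeR adjusted p = 0.00107).

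Progenitor 1 differed from Progenitor 2 in the size of the mitotic rises. Of 13759 genes tested outside the lists, 372 differed (2.70%): 308 had a more positive phase difference in Progenitor 2 (2.24%) and 64 a more negative one (0.465%). KIF14 stood at 211 to 359 CPM in the G2M sums of Progenitor 2 and at 29 to 65.7 CPM in those of Progenitor 1, scaled to the total of a sum, while the G1 sums were 4.20 to 6.84 CPM in Progenitor 2 and 8.46 to 13.9 CPM in Progenitor 1, and its phase difference was larger in Progenitor 2 by 3.59 ± 0.35 (edgeR adjusted p = 5.56e-07). DIAPH3 was larger by 3.08 ± 0.51 (edgeR adjusted p = 0.000525), KIF15 by 3.42 ± 0.46 (edgeR adjusted p = 3.9e-05) and CCNB1 by 2.44 ± 0.57 (edgeR adjusted p = 0.0147). APOLD1 stood at 583 to 663 CPM in G2M of Progenitor 2 and 24.1 to 84.0 CPM in G2M of Progenitor 1 (larger by 3.37 ± 0.32, edgeR adjusted p = 5.56e-07). HSPH1 went the other way and rose less in Progenitor 2 (-0.52 ± 0.14, edgeR adjusted p = 0.0393). For HSP90AA1 the difference between classes was -0.14 ± 0.12 and for NRXN3 0.47 ± 0.26, and neither was called. A score of at least 0.2 was held by 287 of 711 G2M nuclei in Progenitor 2.

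Fewer genes passed the same test against enteric neurons. In this comparison, added after the data were seen, 14 of 13534 genes differed between the 2 classes (0.103%), and 1185 had an unadjusted edgeR p under 0.05. The small number of calls does not show that the phase differences were alike. GLIS3 fell in Progenitor 1, from 37.5 to 74.4 CPM in G1 to 23.9 to 37.9 CPM in G2M, and was higher in the G2M neurons of all 4 samples (difference 1.89 ± 0.24, edgeR adjusted p = 0.000832). The long non-coding RNA THORLNC had the same pattern (1.57 ± 0.21, edgeR adjusted p = 0.000832), and UBTD1 differed by -2.23 ± 0.35 (edgeR adjusted p = 0.00901), with the single nucleus given above. KIF14 rose more in neurons, by 1.96 ± 0.38 (edgeR adjusted p = 0.0362). For DIAPH3 the difference between neurons and Progenitor 1 was 0.47 ± 0.50 and for ASPM 0.13 ± 0.55. After thinning, 22.9% of neurons called G2M had a UMI of the 10 proliferation genes (171 of 747, 19.9 to 26.1), against 22.3% of Progenitor 1 nuclei called G2M (203 of 912, 19.6 to 25.1).

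**Figure D5:**
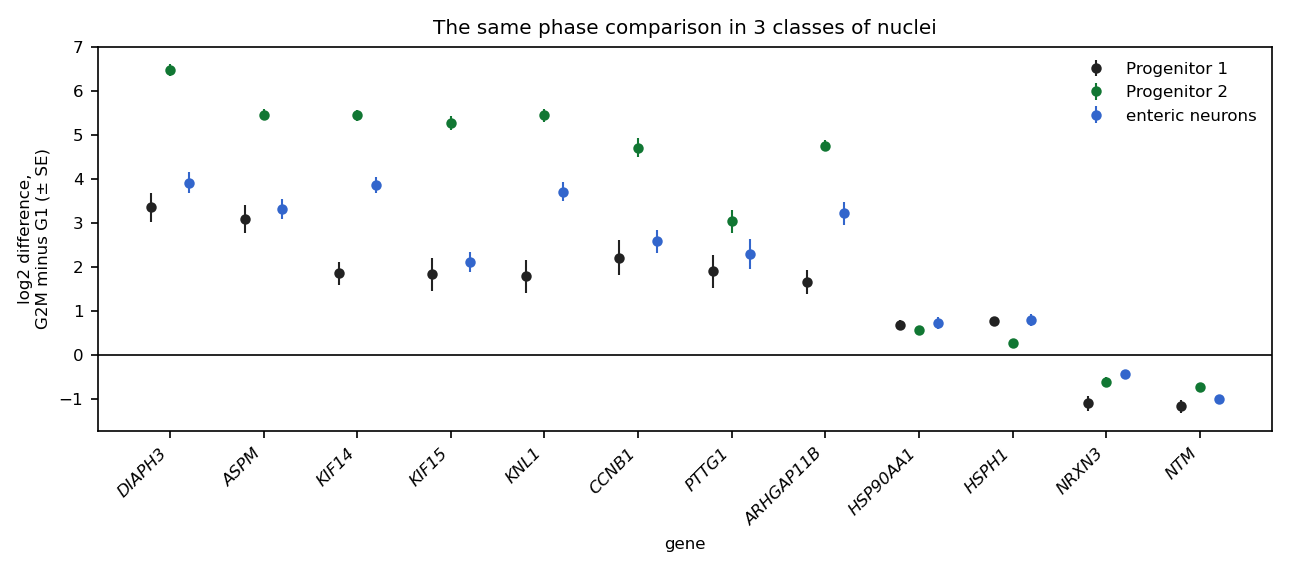
Log2 difference between G2M and G1 (points) with its standard error (bars) for 12 genes in Progenitor 1, Progenitor 2 and enteric neurons, each class fitted alone over the same 4 samples. The mitotic genes stand highest in Progenitor 2, with 6.48 for DIAPH3 against 3.36 in Progenitor 1, while HSP90AA1 lies between 0.57 and 0.73 in all 3 classes.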

How the data were processed

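Nuclei from enteric ganglioids (2 control and 2 PP121 samples) were profiled by snRNA-seq. The authors deposited UMI counts per gene and nucleus, without normalization, with a table of annotations. The submitters' processing notes name Cell Ranger, Seurat 4.0.4 and GRCh38, and the study's methods kallisto and bustools; use of introns and strand is not given in the sources used here. The study kept nuclei within limits of 7000 features, 40000 UMIs and 10% mitochondrial counts and demultiplexed hashtags; no doublet caller was run here. Deposited percent of mitochondrial and ribosomal counts and deposited scores were used as given. Cell class and phase are those of the authors, and group labels are those of GEO, which differ from a deposited sample column for the controls.

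Counts were summed per sample and phase. Tests were edgeR 4.0.16 (R 4.3.3) quasi-likelihood tests, two-sided, with TMM factors, edgeR's filter, the sample as a block and Benjamini-Hochberg adjustment at 0.05 over all genes. Per-sample CPM are TMM-adjusted; S levels, marker sums and levels in other classes are scaled to totals only. Interactions were terms of 1 fit. The block is the sample itself, since both phases come from the same nuclei pool. Seurat 5.3.0 rebuilt the scores. The edgeR test of G2M against G1 was tried on simulated sums with known changes, the same scatter for every gene and no sample differences beyond depth. The interaction, DESeq2 and exact tests were not tried on simulated data. The members and gene lists were chosen with earlier results of these data known. Named were, outside the scoring lists, the 10 largest rises and falls that passed the test, averaged 10 CPM or more and went one way in all 4 samples, up to 3 genes of smallest p per list and per interaction, and genes given as chosen after their values were seen. Alternatives were DESeq2 1.42.0, other size factors, filters, depth-matched nuclei, clear calls (0.05 beyond the thresholds), the top 5% of UMIs left out, no block and each sample left out. Values of some single genes are not reported here.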

Additional observations from a re-analysis of the deposited data

Results flagged for a closer look

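Differences in the phase effect between groups were flagged where the test of the difference passed. Between PP121 and control samples 7 genes passed, led by GRAMD4 (-4.30), AC096711.2 (-3.32, a control gene of the scores) and PCDH9-AS2 (3.34, log2). Between replicate numbers 14 genes passed, led by FGFBP3 (-3.33), AL021918.5 (-2.42) and MEF2C (1.54). In GRAMD4, AC096711.2, FGFBP3, AL021918.5 and UBTD1, 1 nucleus held most UMIs of a sum. For AC096711.2 it held 72 of the 111 UMIs in the G1 sum of PP121 replicate 1. Without it that sum stood at 20.9 CPM in place of 58.8 CPM. Between Progenitor 2 and Progenitor 1, 372 genes passed, led by APOLD1 (3.37), KIF14 (3.59) and PKP4 (1.66, a control gene). Between enteric neurons and Progenitor 1, 14 genes passed, led by GLIS3 (1.89), THORLNC (1.57) and UBTD1 (-2.23). Groups of 2 samples were too small to look for a sample that stands apart.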

How the results depend on the processing

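The counts of 332 rises and 468 falls became 104 and 139 with DESeq2, 91 and 163 with clear calls, 207 and 279 without the top 5% of UMIs, and 6 and 1 with no replicate block (the samples' own levels then add to the error), and ranged from 78 to 298 rises and 140 to 377 falls with a sample left out. Under the other alternatives both stayed within 1.5 times. List members that rose, control genes included, numbered 50, against 14 with clear calls and 18 with scores under 0.2, and those that fell 7, against 4 with scores of at least 0.2. The numbers of genes tested differed between these fits. Outside the scoring lists 2.91% of 11422 genes rose, against 1.53% of 5949 with clear calls and 2.34% of 11101 with scores under 0.2. Falls were 4.10%, against 3.85% of 8353 with scores of at least 0.2. The drops in members thus partly reflect fewer genes tested or called. The 7 genes of the PP121 interaction became 0 with DESeq2 (86 at an unadjusted p under 0.05), 2 with at least 10 counts in every sum and 1 to 51 with a sample left out. The 14 of the replicate interaction became 0 with DESeq2 (76 at an unadjusted p under 0.05) and 20 to 40 with a sample left out. The 372 of the Progenitor 2 interaction became 185 with DESeq2 and 165 to 239 with a sample left out. The PP121 minus control share in G2M turned to -1.45 points with 1 scoring object and spanned -0.964 to 8.67 with a sample left out. The log2 ratio of UMIs turned to -0.0535 with means and spanned -0.0126 to 0.0631 with a sample left out, and was 0.138 with clear calls. With scores of at least 0.2, HIST1H1C (-0.22), H3F3B (-0.23), HIST1H2AC (-0.77), HSPA1A (-0.34) and MAML2 (0.09) changed sign, and FGFBP3 did (-0.11) with depth-matched nuclei. Of 942 values of 65 named genes, 780 kept direction and side of the threshold, 156 lost the call and 6 changed sign. The causes were not tested. Depth limits statements on single nuclei.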
